A study of Mus musculus with 5 samples.

Results

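*Nppa* and *Bmp10* were followed in the ventricles of *Celf1* -/- and *Celf1* +/+ mice. They were picked by their gene numbers in the deposited expression values, which makes 2 genes of the 28416 listed. Both are also in the study's own list of genes changed at PN3, so their direction there is not independent evidence. *Nppa* encodes the precursor of atrial natriuretic peptide, a hormone of cardiomyocytes that lowers blood volume and blood pressure. In the fetal heart it is made in atria and ventricles, after birth it becomes mainly atrial, and ventricles under load make it again. *Bmp10* encodes a secreted ligand of the bone morphogenetic protein (BMP) family, which signals through receptor kinases and Smad proteins. It is made by trabecular cardiomyocytes of the embryonic ventricle, where it is needed for growth of the wall, and in the adult heart mainly by the right atrium. Both genes are therefore used as markers of atrial as well as of immature ventricular myocardium.

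Expression was measured by RNA-seq in ventricles of male mice, from which blood and atria had been removed. The mice were of a mixed strain, spelled 129v/BL6 in the sample labels and 129Sv/BL6 by the study. At postnatal day 3 (PN3) 2 libraries came from *Celf1* -/- mice, a constitutive knock out of the RNA binding protein Celf1, and 2 from *Celf1* +/+ mice. At postnatal day 38 (PN38) 1 library came from *Celf1* +/+ ventricles. The replicates are called biological, but the sources used here do not say whether a library holds 1 animal or several, and p-values measure the spread between these libraries only.

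Total expected counts on genes ranged from 108044284 to 139769909 per library. *Celf1* itself, the targeted gene, fell by 4.21 on the log2 scale (SE 0.0885) in the *Celf1* -/- libraries at PN3, with an adjusted p of 2.7e-04 in the quasi-likelihood (QL) test of edgeR. The ventricular transcription factor gene *Hey2* measured between 19.5 and 30.4 FPKM in the PN3 libraries and 2.66 FPKM at PN38. FPKM, the unit of level used throughout, counts fragments on a gene relative to the length of its transcript and to the total of the library.

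In mm9 the *Nppa* gene spans chr4:147374831-147376188 on the plus strand and is annotated by GENCODE with 3 exons. Its neighbour *Nppb*, which encodes the related brain natriuretic peptide, lies on the same strand at chr4:147359897-147361314 and ends 13516 bp before *Nppa* begins. *Bmp10* lies on the plus strand at chr6:87378996-87384506 and has 2 exons. In the deposited values each of *Nppa* and *Bmp10* holds a single transcript, of 829 and 1317 nucleotides. The counts of *Bmp10* were whole numbers in all 5 libraries and those of *Nppa* were at most 0.27 from a whole number, so few or no fragments were split with other genes.

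The stretches below come from the RefSeq promoters of GRCm38.p6, a later build than mm9, which cover 250 bases before and 50 after the start of each gene. They are shown because GATAA, the core letters bound by the cardiac GATA factors, was the one motif of those searched that both genes hold in this window. The motif or its complement on the other strand (TTATC) is in capitals.
*Nppa* (plus strand, chr4:148000589-148000618): ctttgccgaactGATAActttaaaagggca
*Nppa* (motif on the minus strand, chr4:148000635-148000664): cactccatcgctTTATCgctgcaagtgaca
*Bmp10* (plus strand, chr6:87428764-87428793): ttacactgggaaGATAAgagaggctaggcc
*Bmp10* (plus strand, chr6:87428950-87428979): tacactccgcaaGATAAaactgccagttac
GATAA was found on either strand in 25.4% of the 32851 promoters searched, so its presence at both genes is a description. The *Nppb* promoter also holds it, with 2 matches. AAGTG, the core of the Nkx2-5 element, had 2 matches at *Nppa* and 0 at *Bmp10* (46.4% of all promoters). AGGTGT, a T-box element, had 1 match at *Nppa* and 0 at *Bmp10* (13.7% of all promoters). TGTGT, a TG repeat, had 0 matches at *Nppa* and 2 at *Bmp10* (47.9% of all promoters). Exact matches to the consensus of the CArG box bound by SRF and of the MEF2 box were found in neither window, nor at *Nppb* (1.63% and 3.19% of all promoters). Near matches were not counted, and the first *Nppa* stretch holds ctttaaaagg, which departs from the CArG consensus by 1 letter. All motifs were searched on both strands.

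*Nppa* was higher in *Celf1* -/- than in *Celf1* +/+ ventricles at PN3 and was one of the most abundant mRNAs of the knock out heart. Its level was 1857 FPKM in the first and 1763 FPKM in the other *Celf1* -/- replicate. The *Celf1* +/+ replicates stood at 559 FPKM and 453 FPKM. The groups did not overlap, and replicates differed 1.05-fold in *Celf1* -/- and 1.23-fold in *Celf1* +/+ libraries. The means were 1810 ± 66.6 and 506 ± 75.2 FPKM (SD, n = 2 each), a ratio of 3.58. These levels rest on 162995 and 161264 fragments in the *Celf1* -/- libraries and on 47199 and 36223 fragments in the *Celf1* +/+ libraries. Ranked by FPKM among all genes, *Nppa* took places 22 and 25 in the *Celf1* -/- libraries, against places 174 and 203 in the *Celf1* +/+ libraries. Its share of all counts was 0.122% and 0.115% in the knock out and 0.0365% and 0.0295% in the wild type.

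**Figure D1:**
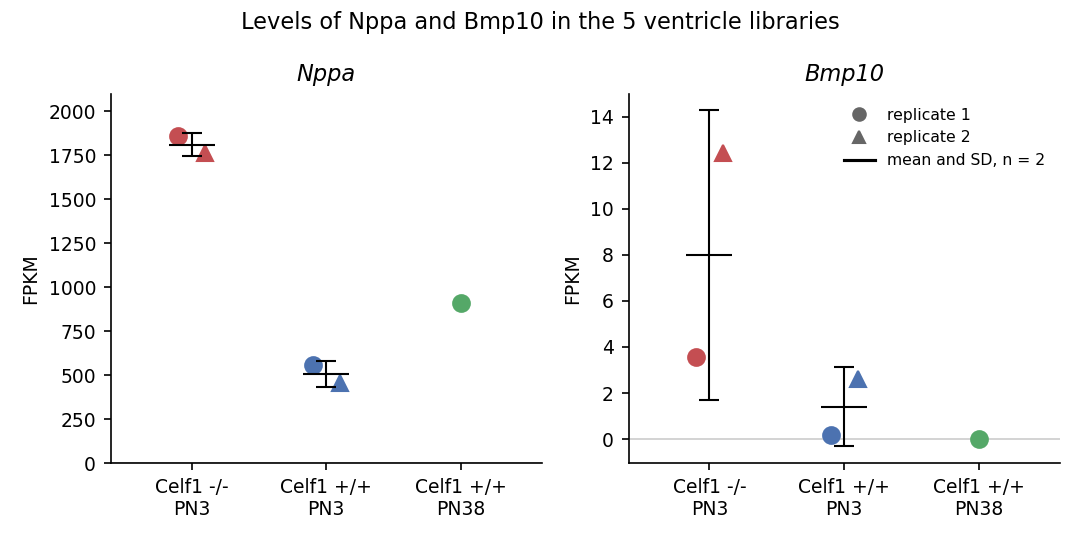
FPKM of *Nppa* (left) and *Bmp10* (right) in each library, by genotype and age. Circles are replicate 1 and triangles replicate 2, and bars give the mean and SD of the PN3 groups. *Nppa* replicates lie at 1763 and 1857 FPKM in *Celf1* -/- and at 453 and 559 FPKM in *Celf1* +/+ ventricles. *Bmp10* replicates differ 3.50-fold in *Celf1* -/- and 13.7-fold in *Celf1* +/+ ventricles.

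Tested on the deposited counts, *Nppa* rose by 1.86 ± 0.132 (log2 fold change ± SE), with a QL adjusted p of 0.046 in edgeR after Benjamini-Hochberg correction over 12502 genes. It was higher in 2 of 2 *Celf1* -/- libraries than in both *Celf1* +/+ libraries, as were 26.8% of all tested genes. *Nppa* was the 1 gene called higher (0.008% of those tested) at a false discovery rate (FDR) of 0.05 and 1.5 fold, where 6 genes, *Celf1* among them, were called lower (0.048%) and 0.056% of tested genes were called in all. Other tests called more genes higher at these limits, 127 with edgeR's exact test and 136 with DESeq2. With genes filtered on the mean of the 4 libraries (at least 1 FPKM) or by edgeR's filterByExpr, the QL adjusted p of *Nppa* became 0.051 and 0.055, with the same log2 fold change of 1.86. Over all alternatives the adjusted p of *Nppa* lay between 2.1e-43 and 0.055.

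Among all tested genes *Nppa* had the 10th highest log2 fold change and the 5th lowest p. The genes above it in fold change were expressed at lower levels. Of the 822 genes with a mean of at least 100 FPKM over the PN3 libraries, a limit chosen after the values were seen, *Nppa* had the highest log2 fold change, and the next highest was 1.15.

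**Figure D2:**
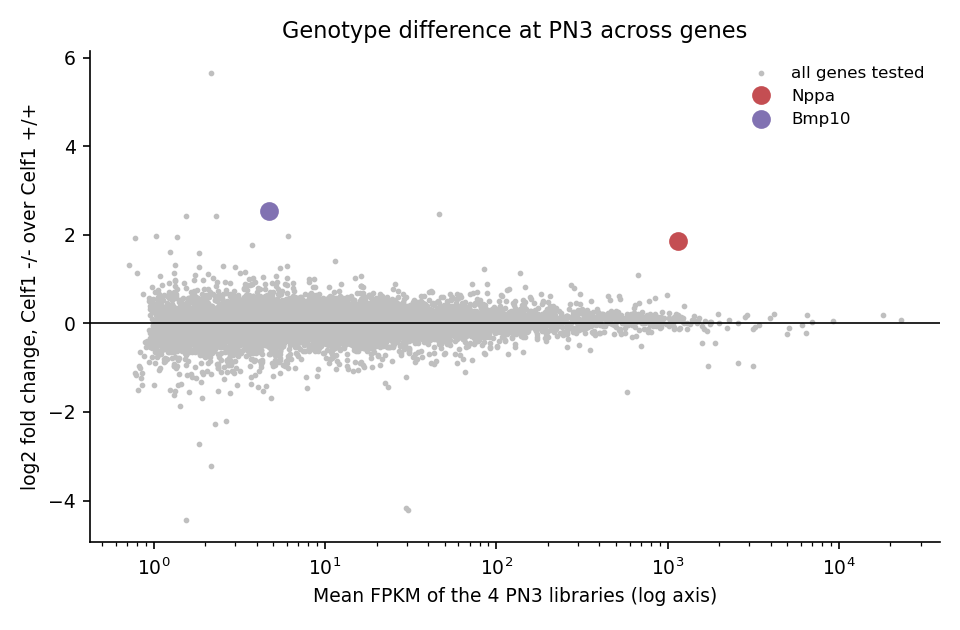
Each grey point is 1 of the 12502 genes tested at PN3, by its mean FPKM in the 4 PN3 libraries (log axis) and its log2 fold change between *Celf1* -/- and *Celf1* +/+ libraries. *Nppa* stands apart among abundant genes at a log2 fold change of 1.86, and *Bmp10* has the 2nd highest log2 fold change, 2.54, among genes of low level.

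*Bmp10* stood at 12.4 FPKM or less in every library and varied far more between replicates than *Nppa*. Its level was 3.55 FPKM in replicate 1 of *Celf1* -/- ventricles against 12.4 FPKM in replicate 2. In *Celf1* +/+ ventricles the replicates stood at 0.19 FPKM and 2.61 FPKM, again with replicate 2 higher. Both *Celf1* -/- libraries were above both *Celf1* +/+ libraries, as for 26.8% of all tested genes. The lowest *Celf1* -/- value was only 1.36 times the highest *Celf1* +/+ value. The means were 7.99 ± 6.28 and 1.40 ± 1.71 FPKM (SD, n = 2 each), a ratio of 5.71 in which each SD is close to its mean. By rank of FPKM *Bmp10* took places 10100 and 6055 in the *Celf1* -/- libraries and places 14704 and 10972 in the *Celf1* +/+ libraries.

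Counting intervals of *Bmp10* did not overlap between any of the PN3 libraries. *Bmp10* had 544 and 1985 fragments in the *Celf1* -/- libraries and 28 and 365 in the *Celf1* +/+ libraries. The exact Poisson 95% interval of the lowest count ran from 18.6 to 40.5, and that of the next lowest from 329 to 404. These intervals cover counting error only, since fragments made by PCR are not independent molecules. Between replicates *Bmp10* differed by 1.81 on the log2 scale in *Celf1* -/- and by 3.71 in *Celf1* +/+ libraries (FPKM + 0.01), where the median absolute difference over the 12502 tested genes was 0.110 and 0.0986. Of these genes 39 in *Celf1* -/- and 8 in *Celf1* +/+, *Bmp10* included, differed at least as much. For *Nppa* the differences were -0.08 and -0.30, of the opposite sign in both genotypes, so that replicate 2 was the lower one. At least as large a difference as that of *Nppa* was found for 8028 genes in *Celf1* -/- and 1255 in *Celf1* +/+, *Nppa* included.

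For *Bmp10* the same QL test in edgeR gave 2.54 ± 1.14 (log2 fold change ± SE) with an adjusted p of 0.25, which does not pass FDR 0.05. The study's own use of edgeR listed *Bmp10* as up-regulated at that FDR and 1.5 fold. In the QL test the standard error of *Bmp10* was 12.8 times the median over all tested genes, while that of *Nppa* was 1.48 times the median. *Bmp10* passed the filter (a level of 1 FPKM or more in each replicate of either genotype) through the *Celf1* -/- libraries alone, and it also passed on the mean of the 4 libraries. The fold change moved with each library that was left out, to 3.16 without *Celf1* -/- replicate 1, 1.40 without *Celf1* -/- replicate 2, 1.64 without *Celf1* +/+ replicate 1 and 5.38 without *Celf1* +/+ replicate 2. For *Nppa* the 4 values lay between 1.70 and 2.04. DESeq2 gave *Bmp10* an adjusted p of 0.32 and edgeR's exact test gave 0.20, in a range from 0.043 to 0.47 over all alternatives.

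**Figure D3:**
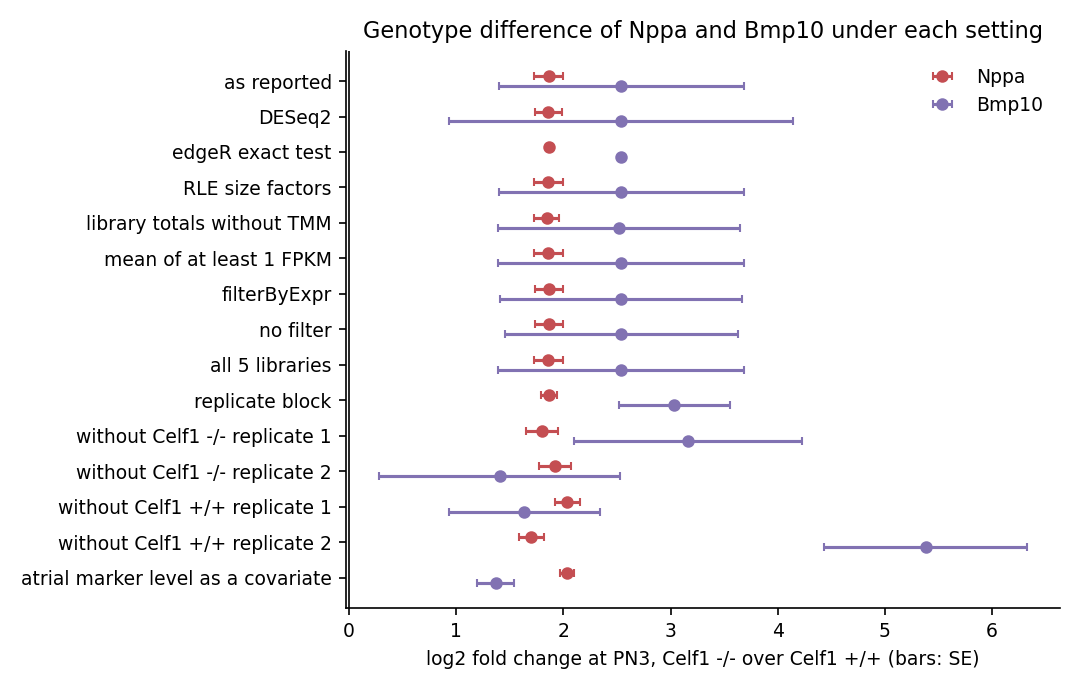
log2 fold change at PN3 (*Celf1* -/- over *Celf1* +/+) of *Nppa* and *Bmp10* as reported and under each alternative, with bars for the standard error (none for the exact test). *Nppa* stays between 1.70 and 2.04 throughout, while *Bmp10* runs from 1.37 to 5.38.

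Levels of atrial markers were read beside both genes, since fewer cells of a type and less RNA per cell cannot be told apart in bulk tissue. Of 21 atrial markers listed, 9 could be named, and all 9 were above 0 FPKM in every library. The working cardiomyocyte markers among them moved together between libraries. *Myl7*, the atrial regulatory myosin light chain, measured 416 and 665 FPKM in the *Celf1* -/- libraries, 181 and 539 FPKM in the *Celf1* +/+ libraries (replicate 1 and 2) and 19.3 FPKM at PN38. *Sln* (sarcolipin, an inhibitor of the atrial calcium pump) measured 55.02, 132, 17.7, 85.3 and 5.47 FPKM in the same order. *Myl4*, the atrial essential light chain, measured 285, 471, 139, 345 and 33.3 FPKM, and *Mybphl*, a myosin binding protein of atrium and conduction system, 8.51, 15.5, 3.73, 13.0 and 0.86 FPKM. All 4 were lowest at PN3 in *Celf1* +/+ replicate 1 and highest in *Celf1* -/- replicate 2, as was *Bmp10*. They were higher in *Celf1* +/+ replicate 2 than in *Celf1* -/- replicate 1, which *Bmp10* was not.

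Other atrial markers differed less between replicates. *Gja5*, a gap junction gene, measured 9.27 and 14.6 FPKM in the knock out and 9.95 and 14.3 FPKM in the wild type libraries. *Nr2f1* lay between 1.94 and 3.24 FPKM, *Nr2f2* between 3.68 and 5.56 and *Tbx18* between 4.79 and 6.54 FPKM at PN3, all 3 being transcription factor genes. Over the 9 markers the summed level was 787 and 1313 FPKM in *Celf1* -/-, 365 and 1014 FPKM in *Celf1* +/+ libraries at PN3 and 66.6 FPKM at PN38. Replicate 2 was above replicate 1 for 9 of the 9 in *Celf1* +/+ and for 7 of the 9 in *Celf1* -/- libraries. All 9 were named from genes the study listed as changed in development and 0 from its PN3 list, so their counts at PN3 are not independent. None of the 9 had both *Celf1* -/- libraries on one side of both *Celf1* +/+ libraries. Of all tested genes 26.8% had both above and 30.3% had both below. By the QL test of edgeR 0 of the 9 were called, beside 0.056% of all tested genes. An unadjusted p under 0.05 in that test was found for 0 of the 9, beside 23.6% of all tested genes. Their log2 fold changes lay on both sides of a median of 0.00, with *Myl4* at 0.66, *Myl7* at 0.62, *Mybphl* at 0.55 and *Sln* at 0.89 (edgeR adjusted p = 0.41, 0.49, 0.60 and 0.51). The part of atrial tissue in the *Bmp10* difference was not tested.

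Divided by each of *Myl4*, *Myl7*, *Mybphl* and *Sln* in turn, *Bmp10* kept its order, with the *Celf1* +/+ libraries below the *Celf1* -/- libraries. *Bmp10* per *Myl7* FPKM was 0.00854 and 0.0187 in *Celf1* -/-, and 0.00105 and 0.00485 in *Celf1* +/+ libraries. Divided by the sum of the 4 markers the ratio of the genotype means was 4.46, against 5.71 without that step. With the log2 of this sum as a covariate, an alternative chosen after seeing the data that leaves 1 residual degree of freedom, the log2 fold change of *Bmp10* was 1.37 ± 0.171 (SE, with a QL adjusted p of 0.043 in edgeR) and that of *Nppa* was 2.03 (adjusted p = 0.0091). In that fit 211 genes were called, against 7 without the covariate.

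Divided by the same markers, *Nppa* did not keep its order. *Nppa* per *Myl7* FPKM was 4.47 and 2.65 in the knock out against 3.09 and 0.841 in the wild type libraries, so that the groups overlapped, as they did with each of the 4 markers. Per sum of the 4 markers *Nppa* was 2.43 and 1.37 against 1.64 and 0.461, and the ratio of the genotype means was 1.81, against 3.58 without that step. With single markers this ratio lay between 1.28 for *Sln* and 1.92 for *Myl4*. Undivided, the levels of *Nppa* and of the markers were ordered differently across libraries. The marker sum was 1.28 times higher in *Celf1* +/+ replicate 2 than in *Celf1* -/- replicate 1, while *Nppa* was 453 FPKM in the former and 1857 FPKM in the latter. At PN38 the sum was 11.2 times lower than the *Celf1* +/+ mean at PN3, and *Nppa* was 1.80 times higher.

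**Figure D4:**
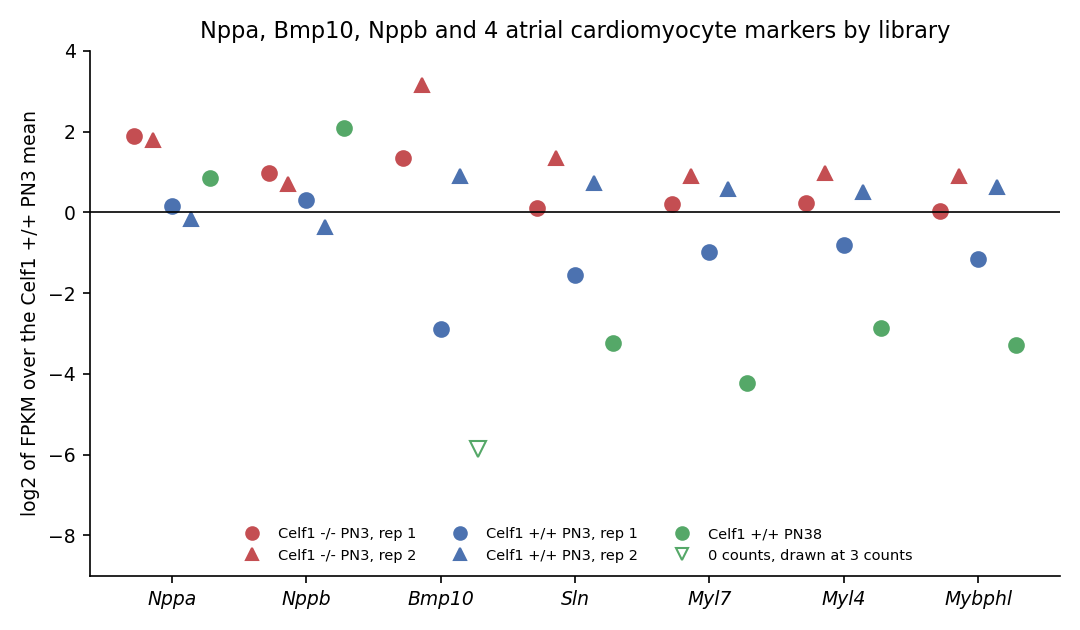
log2 of FPKM over the *Celf1* +/+ PN3 mean for *Nppa*, *Nppb*, *Bmp10* and the atrial cardiomyocyte markers *Sln*, *Myl7*, *Myl4* and *Mybphl*, 1 point per library. *Nppa* and *Nppb* are higher in *Celf1* -/- libraries with replicate 1 above replicate 2, whereas *Bmp10* and the 4 markers have replicate 2 above replicate 1 in both genotypes and their lowest value at PN38. The open triangle stands for the *Bmp10* count of 0 and is drawn at a floor of 3 counts.

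Between PN3 and PN38 in *Celf1* +/+ ventricles, *Nppa* was higher and *Bmp10* lower at the later age. *Nppa* measured 912 FPKM at PN38, from 64921 fragments, against 559 and 453 FPKM at PN3, and so lay above both *Celf1* +/+ and below both *Celf1* -/- libraries at PN3. The ratio of FPKM was 1.80, under the 2-fold limit used for development. On counts scaled by TMM (trimmed mean of M values) it was higher by 1.32 ± 0.152 (log2 fold change ± SE), with a QL adjusted p of 0.0014 in edgeR over 12534 genes. At FDR 0.05 alone 30.8% of tested genes were higher and 32.1% lower at PN38, and 5.91% were called higher with 2 fold. The scales differ because FPKM placed the median tested gene at a log2 ratio of -0.48 and TMM counts placed it at -0.02. With PN38 in 1 library, the spread comes from the PN3 libraries.

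*Bmp10* had 0 fragments among 108044284 at PN38. With 3 fragments, or 0.0242 FPKM, taken as the floor for a count of 0, *Bmp10* was 57.8-fold lower than the *Celf1* +/+ mean at PN3. Set against single PN3 libraries the value was 7.85-fold for replicate 1 and 107.8-fold for replicate 2. The exact Poisson 95% interval used above runs to 3.69 fragments, and at that limit all these folds would be smaller. The QL test in edgeR did not call the difference (adjusted p = 0.098, where 67.1% of tested genes had an unadjusted p under 0.05), although DESeq2 (adjusted p = 0.0033) and the exact test (adjusted p = 0.0016) called it, as did the QL test without *Celf1* +/+ replicate 1 (adjusted p = 0.0096), in a range from 0.0016 to 0.11 over the alternatives. A filter on *Celf1* +/+ libraries alone, requiring 1 FPKM at PN38 or in each replicate at PN3, left *Bmp10* untested. Of the 9 named atrial markers, 8 were called lower at PN38 at FDR 0.05 and 2 fold, where 22.6% of tested genes were called lower. The exception was *Sln* (adjusted p = 0.088), *Nr2f2* passed 2 fold in FPKM but not in TMM counts, and all 9 were named from genes that the study listed as changed in development, so their count is not independent.

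The natriuretic peptide system could be followed only for genes with a name, 6 of the 18 listed, of which 5 were named from genes that the study listed as changed at PN3. Among ligands, *Nppb* measured 384 and 320 FPKM in the knock out and 241 and 152 FPKM in the wild type libraries at PN3. Its genotype difference was smaller than that of *Nppa*, at 0.86 ± 0.243 (log2 fold change ± SE), and did not pass FDR 0.05 (adjusted p = 0.15). At PN38 *Nppb* rose to 837 FPKM, or by 2.56 ± 0.287 on the log2 scale of TMM counts (adjusted p = 0.0013). The ratio of *Nppa* to *Nppb* in FPKM was 4.84 and 5.50 in *Celf1* -/- libraries, 2.32 and 2.97 in *Celf1* +/+ libraries and 1.09 at PN38. *Nppa* thus exceeded its neighbour in every library, most in the knock out.

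Among the enzymes, *Pcsk6*, which encodes a proprotein convertase that activates the *Nppa* processing enzyme corin, had the largest difference apart from *Nppa*. It measured 8.27 and 10.2 FPKM in the knock out and 19.9 and 19.7 FPKM in the wild type libraries, below in both as were 30.3% of all tested genes, and its log2 fold change of -1.08 ± 0.0991 (SE) came with an adjusted p of 0.053. For *Furin*, another proprotein convertase, the value was -0.36 (adjusted p = 0.12). Of the phosphodiesterases that degrade the second messenger cGMP, *Pde2a* was at -0.38 (adjusted p = 0.13) and *Pde5a* at -0.03 (adjusted p = 0.87), all from the same edgeR fit. At FDR 0.05 and 1.5 fold 1 of the 6 was called higher, *Nppa*, and 0 lower, beside 0.008% and 0.048% of all tested genes. In development 1 was called higher, *Nppb*, and 1 lower, *Pde5a*, beside 5.91% and 22.6% of all tested genes. *Pde5a* measured 1.37 FPKM at PN38 (log2 fold change -1.03, adjusted p = 0.0022).

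In the BMP pathway 13 of 57 listed genes could be named, and 0 were called at PN3 (0.056% of all tested genes), while 6 had an unadjusted p under 0.05, as had 23.6% of all tested genes. The median log2 fold change was -0.17, against 0.00 over all tested genes. Among ligands, *Bmp7* measured 22.01 and 16.9 FPKM in the knock out and 14.1 and 12.3 FPKM in the wild type libraries (log2 fold change 0.58, adjusted p = 0.15). *Bmp5* measured 1.68 and 1.99 against 2.66 and 2.59 FPKM (log2 fold change -0.50, adjusted p = 0.15), and *Gdf6* 1.24 and 1.33 against 1.15 and 1.01 FPKM (log2 fold change 0.26, adjusted p = 0.34). *Bmp10* was thus the ligand with the largest ratio between genotypes and the widest spread. *Eng* (endoglin), a co-receptor that binds Bmp10, stood at 0.35 on the log2 scale (adjusted p = 0.11) and *Tcap* (telethonin), a sarcomere protein that binds Bmp10, at -0.41 (adjusted p = 0.091).

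In development 9 of the 13 BMP pathway genes were called lower and 1 higher, beside 22.6% and 5.91% of all tested genes. The 13 were named from the study's lists of changed genes, so these counts are not independent. *Bmp7* fell to 0.74 FPKM at PN38 (log2 fold change -3.70), *Bmp5* to 0.39 FPKM (-2.29) and *Gdf6* to 0.32 FPKM (-1.31). The receptors *Acvr1* and *Acvr2b*, the targets *Id2*, *Id4* and *Hey2* and the BMP enhancer *Kcp* were also lower, and *Tcap* rose to 953 FPKM (log2 fold change 2.55). On FPKM the median gene lay at -0.48, so *Acvr1* (-0.88 on TMM counts), *Acvr2b* (-0.89) and *Id4* (-0.86) pass 2 fold in FPKM but not in TMM counts. The *Bmp10* value of 0 therefore stood beside lower values of every other named ligand of the family.

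Other lists held few genes that could be named, all from the study's lists of changed genes, so that their counts are not independent of these samples. None of their genes was called at PN3. In the list of fetal and stress genes (10 of 21 named, median log2 fold change 0.39) the values ran from -0.68 for *Xirp2*, an intercalated disc protein gene, to 1.13 for *Gdf15*, a stress-induced cytokine gene (adjusted p = 0.20 and 0.11). The beta myosin gene *Myh7* measured 1039 and 531 FPKM in the knock out and 456 and 699 FPKM in the wild type libraries, with overlapping groups. Ventricular markers (6 of 18 named, median 0.01) ran from -0.55 for the sodium channel gene *Scn10a* to 0.86 for *Nppb*. Cardiac transcription factor genes (5 of 16 named, median 0.08) ran from -0.34 for *Gata6*, the one GATA factor gene with a name, to 0.50 for *Foxm1*, a cell cycle factor.

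In development *Nppb*, *Ankrd1* and *Xirp2* of the stress list were called higher, with *Ankrd1*, a stretch-responsive nuclear cofactor, at 1768 FPKM against 777 and 512 FPKM at PN3. *Myh7*, *Myh7b*, *Tnni1* and *Uchl1* of that list were called lower, and *Tnni1*, the fetal troponin I, measured 1607 and 2021 FPKM at PN3 and 0.16 FPKM at PN38. *Nppa* thus differed in direction from *Tnni1* and *Myh7*, other genes of the fetal program, and shared it with *Nppb* and *Ankrd1*. Of the ventricular markers *Nppb* was called higher and the other 5 lower, and of the transcription factor genes 5 of the 5 were called lower, beside 5.91% of all tested genes called higher and 22.6% lower. *Myh7b* and the transcription factor genes *Prox1* and *Mef2a* passed 2 fold in FPKM but not in TMM counts.

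Of the markers of other cells 0 were called at PN3 in the QL test of edgeR. An unadjusted p under 0.05 was found for 3 of 5 erythroid, 3 of 3 lung, 4 of 5 epicardial, 2 of 3 endothelial and 3 of 8 fibroblast markers, beside 23.6% of all tested genes, and some markers are in more than 1 list. Erythroid markers (5 of 12 named, median -0.95, lowest *Hbb-b1* at -1.54 with an adjusted p of 0.091) summed to 2296 and 4902 FPKM in *Celf1* -/- and to 7487 and 7221 FPKM in *Celf1* +/+ libraries at PN3, and to 6255 FPKM at PN38. Lung markers (3 of 15 named, median 1.27) summed to 13.4, 25.04, 7.32, 8.68 and 0.88 FPKM in the 5 libraries, where *Scgb3a2*, a secretoglobin of airway cells, measured 1.52 and 7 FPKM in *Celf1* -/-, 0.05 and 0.12 FPKM in *Celf1* +/+ libraries and 0 FPKM at PN38. Epicardium and mesothelium markers (5 of 11 named, median 0.17) summed to 85.7 and 93.0 against 78.1 and 87.4 FPKM. Endothelium and endocardium markers (3 of 12 named, median 0.49) summed to 108.4 and 110 against 87.0 and 81.2 FPKM, and fibroblast markers (8 of 10 named, median -0.12) to 1911 and 1848 against 2006 and 2315 FPKM. In development 5 of the 5 epicardial, 2 of the 3 lung, 1 of the 5 erythroid, 0 of the 3 endothelial and 6 of the 8 fibroblast markers were called lower, and 0 higher, beside 22.6% and 5.91% of all tested genes. The part of these cells in the differences of *Nppa* and *Bmp10* was not tested.

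The genes closest to each profile were sought as the root mean square difference of log2(FPKM + 1) from it over the 5 libraries, each gene centred on its own mean, among 12533 genes with a mean of at least 1 FPKM. Over these few libraries the distance is a description, and only 2587 of the genes carry a name. Closest to *Nppa* were *Colq* (0.345), *Gdf15* (0.464), *Hsp90aa1* (0.475) and *Slc15a2* (0.478), with a feature listed only under a clone accession next. *Colq*, which anchors acetylcholinesterase, measured 8.95 and 8 FPKM in *Celf1* -/-, 4.01 and 2.94 FPKM in *Celf1* +/+ libraries and 5.97 FPKM at PN38, the order of libraries seen for *Nppa*. *Hsp90aa1*, an inducible chaperone gene, measured 186 and 187 FPKM, 115 and 99.1 FPKM, and 122 FPKM.

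Closest to *Bmp10* among named genes were *Scgb3a2* (0.594), *Sln* (0.633), *Mybphl* (0.649), *Krt8* (0.702) and *Myl4* (0.727), so that 3 of the 5 came from the atrial list. With unnamed genes included, 1 gene lay closer than *Scgb3a2*. *Krt8*, a keratin of epithelial cells, measured 2.6 and 5.81 FPKM in the knock out and 1.59 and 1.92 FPKM in the wild type libraries. *Bmp10* itself lay at 1.11 from *Nppa*, farther than the median gene lay from *Nppa* (0.887) but nearer than the median gene lay from *Bmp10* (1.29). The FPKM of *Nppa* was 523 and 142 times that of *Bmp10* in *Celf1* -/- and 2942 and 173 times in *Celf1* +/+ libraries, a ratio that set replicate 1 apart from replicate 2 in both genotypes.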

How the data were processed

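RNA-seq of 5 ventricle libraries was analysed. The authors aligned paired-end reads to mm9 with TopHat2 2.02 and estimated gene levels with RSEM 1.2.4, as the submitters' processing notes name them. They deposited expected counts, which are estimated fragments per gene without normalization, with FPKM (scaled to effective length and to all fragments on genes) and TPM (scaled to the same total in every library). Deposited TPM gave ratios at PN3 of 3.56 for *Nppa* and 5.63 for *Bmp10*.

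Genes are numbered in the deposited values. Names came from exact matches of FPKM to the study's supplementary gene table, which lists genes changed at PN3 or in development and was held in part (2634 of 28416 genes named). Genes of a list without a name were not analysed here.

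The rounded counts went into the quasi-likelihood test of edgeR 4.0.16 (R 4.3.3), with TMM scaling and Benjamini-Hochberg correction. Genotypes were compared in a fit of the 4 PN3 libraries, for genes reaching 1 FPKM in each replicate of either genotype. For development all 5 libraries were fitted, over genes with a mean of at least 1 FPKM. A call needed FDR 0.05 together with mean FPKM differing 1.5 fold at PN3 or 2 fold in development. Standard errors came from the log2 fold change and its F statistic. Alternatives were DESeq2 1.42.0, edgeR's exact test, other normalizations, filters and sets of libraries, a replicate block, leaving out each library, and an atrial covariate. The test was also run on simulated counts, where genes of like level were given the same spread. That run does not bear on genes that vary far more than others of their level, such as *Bmp10*. Tables and plots used pandas 2.3.3, scipy 1.17.1 and matplotlib 3.10.9.

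*Nppa* and *Bmp10* and all lists were chosen with earlier results of these data known. The genes named are these 2, *Celf1*, the named ligands and atrial markers, called genes and extremes of the other lists, and the 5 closest in profile. *Furin* and *Pde2a* were added after their values were seen. The level of 1 atrial marker, which enters the counts and sums of its list, is not reported here. RefSeq protein sequences were not used here.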

Additional observations from a re-analysis of the deposited data

How the results depend on the processing

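The *Nppa* difference at PN3 kept its direction under all 14 alternatives and its call under 12, the fit with no filter among them. Its QL adjusted p in edgeR was above 0.05 with the mean filter of at least 1 FPKM (log2 fold change 1.86) and with filterByExpr (1.86). With a library left out, the lone library of its group is assumed to vary like the other group, and the log2 fold change ran from 1.70 to 2.04 for *Nppa* and from 1.40 to 5.38 for *Bmp10* at PN3. The call of *Bmp10* at PN3 was gained only with the atrial covariate (1.37). In development *Nppa* passed FDR 0.05 under all 12 alternatives, and *Bmp10* passed with DESeq2 (-9.38), the exact test (-10.4) and without *Celf1* +/+ replicate 1 (-11.4, in a range from -11.4 to -7.71 over the libraries left out). These values were fitted against a count of 0 and are no bounds, and those of edgeR depend on its prior count. The 7 genes called at PN3 became 367 with DESeq2, 343 with the exact test, 28 with library totals, 2 with the mean filter, 2 with filterByExpr, 16 with no filter, 26 with all 5 libraries, 211 with the atrial covariate and 3 to 93 with a library left out. The cause was not tested. In development 741 genes were called higher and 2832 lower, against 1447 and 1408 when fold was read on TMM counts.

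Deviations of replicate 1 from the mean of its genotype had a correlation of 0.23 across genes between the genotypes. With 2 replicates each this is a single value, and pairing the libraries the other way only turns its sign. The labels tie no replicate number to a litter or batch. The study compared littermates between genotypes without saying which libraries share a litter. With the replicate number as a block, the log2 fold change was 1.87 for *Nppa* (adjusted p = 0.045) and 3.03 for *Bmp10* (adjusted p = 0.072), and 6 genes were called. The PN38 library has no replicate number, so no block was fitted in development. With 36223 fragments or more in every library, depth does not limit *Nppa*. For *Bmp10* it sets the floor at PN38 and widens the counting error of the lowest PN3 value. That value, in *Celf1* +/+ replicate 1, rests on 28 fragments (exact Poisson 95% interval 18.6 to 40.5).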
